A study of Rattus norvegicus with 28 samples.

Results

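Lungs of rats ventilated after chronic injury (chronic_VCV, n = 3) were compared with lungs of ventilated rats without injury (healthy_noisy, n = 3). These 6 libraries, of 28 in the series, were chosen by their labels, and all 17002 genes of the table were taken. Chronic_VCV rats had been ventilated with a constant tidal volume (volume-controlled ventilation, VCV). Healthy_noisy rats had received tidal volumes that varied. Injury and mode of ventilation therefore differ together, and their shares in a difference cannot be told apart within these 6 libraries. All 6 came from the right upper lobe of Sprague Dawley rats, and their titles begin with the same number series, 15, whose meaning the labels do not give. How the injury was made, how long ventilation lasted and the age of the rats are not given in the sources used here. Nothing in the labels says that the libraries of a group come from separate animals. The p-values therefore measure a spread between libraries within groups, estimated over all 28 libraries of the series.

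Values from other groups stand beside the main ones where they bear on them. Chronic_noisy (n = 3) rats were ventilated with variable tidal volumes after chronic injury, as number series 14. Healthy_VCV (n = 4) rats were uninjured and ventilated with a constant tidal volume, and 1 of their libraries, healthy_VCV_062, belongs to number series 15. Acutely injured rats were ventilated in either mode (acute_VCV, n = 3, and acute_noisy, n = 4). Control_chronic (n = 5) lungs were taken 14 days after the start of chronic injury and control_blank (n = 3) lungs were uninjured, both without ventilation.

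In a lung that repairs an injury, fibroblasts lay down collagens and elastic fibres, and transforming growth factor beta (TGF-beta) is a main signal for this. Ventilation stretches the lung as well. Stretched cells send the coactivator YAP to the nucleus, where it acts through TEAD proteins on genes such as Ctgf, while tension in the actin cytoskeleton frees coactivators of the serum response factor (SRF), which drives actin genes. Immediate early genes, such as Fos and Atf3, are switched on within minutes of stress.

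Sequencing depth, counted in reads recovered from the table, was 11280590 to 16842768 reads in chronic_VCV and 13002088 to 16255716 reads in healthy_noisy, within 6024093 to 31923838 over the series. A deposited value is a read count divided by a size factor for its library, so levels can be set against each other between libraries but not between genes. Values of a group are given in the order of library numbers, 067, 069 and 073 in chronic_VCV and 029, 061 and 078 in healthy_noisy. Lung markers were abundant in all 6 libraries. Sftpc, surfactant protein C of alveolar type 2 cells, had 226409.9, 270167 and 272419 in chronic_VCV and 314136, 299334 and 265201 in healthy_noisy. Ager, of alveolar type 1 cells, had 42609.6, 42154 and 54949 in chronic_VCV and 53737, 44333 and 42857 in healthy_noisy. Neither gene passed the test.

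The libraries of a group were far from uniform. Chronic_VCV_067 carried immediate early genes well above the other libraries, chronic_VCV_069 carried collagens and elastin above the others, and healthy_noisy_078 carried airway secretory and interferon response genes above the others. Across the genes tested, the median SD of a gene on the log2 scale was 0.29 in chronic_VCV and 0.247 in healthy_noisy, against 0.173 in healthy_VCV and 0.353 in acute_noisy. On the first principal component of series 15, which carried 26.2% of the variance, the chronic_VCV libraries lay at 44.5, -29.1 and -20.5 and the healthy_noisy libraries at 18.9, 38 and -5.9, so the groups overlapped. No 2 libraries of a group held the same counts.

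Only 4 of 14908 genes tested (0.0268%) passed an adjusted p of 0.05, 3 higher (0.0201%) and 1 lower (0.00671%) in chronic_VCV. Skeletal alpha-actin (Acta1) and connective tissue growth factor (Ctgf) rose, the ubiquitin-conjugating enzyme Ube2t fell, and a gene that the table names by the protein entry D4ADP0_RAT also rose. Changes are log2 differences ± SE on log2(deposited value + 1), chronic_VCV minus healthy_noisy, from limma's moderated two-sided test with Benjamini-Hochberg adjustment over all genes tested. At an unadjusted p under 0.05 there were 612 genes (4.11%), 332 higher and 280 lower. The 3 values of one group lay wholly above or below those of the other for 1084 genes (7.27%), 517 higher (3.47%) and 567 lower (3.8%) in chronic_VCV. The short list does not show that the lungs were alike. The 95% interval of the difference lay within 2-fold either way for 10452 genes (70.1%), and reached a median of 0.51 on the log2 scale to either side of the estimate, and for the others it reached past 2-fold in at least one direction.

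**Figure D1:**
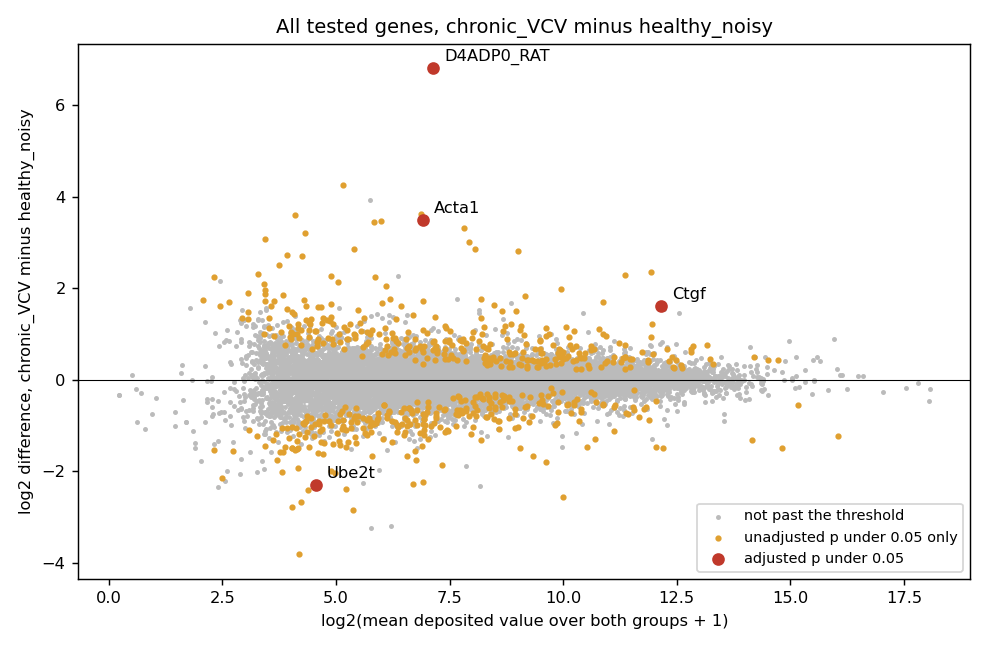
Each point is a gene, with its mean level over the 6 libraries on the x axis (log2 scale) and its log2 difference, chronic_VCV minus healthy_noisy, on the y axis. The 4 genes past the adjusted threshold are in red and named, and genes with only an unadjusted p under 0.05 are in orange; most genes lie near 0, with a median absolute difference of 0.156.

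Acta1 (ENSRNOG00000017786), the actin of the thin filaments of skeletal muscle, had the smallest adjusted p. Its deposited values were 259, 138 and 267 in chronic_VCV and 10.5, 22.9 and 23.5 in healthy_noisy, from 169, 136 and 241 reads in chronic_VCV and 8, 19 and 23 reads in healthy_noisy. Every chronic_VCV library lay above every healthy_noisy library. Means were 221 ± 72.4 in chronic_VCV and 18.96 ± 7.38 in healthy_noisy (SD, n = 3 each), a log2 change of 3.50 ± 0.46 (adjusted p = 0.00105, 95% interval 2.55 to 4.44). It stayed past the threshold when any 1 of the 6 libraries was left out, with changes of 3.14 to 3.81 and adjusted p of 0.0008 to 0.0272. It did not pass in fits on the 6 libraries only (adjusted p = 0.237 in limma, 0.227 in edgeR's quasi-likelihood test) or on number series 15 only (0.145 in limma, 0.164 in edgeR), and neither did any other gene. The chronic_VCV level was not reached in other uninjured or chronically injured groups, whose means were 33.1 in chronic_noisy, 45.2 in healthy_VCV, 37.1 in control_chronic and 97.7 in control_blank. Acutely injured lungs had higher medians, of 1412.49 in acute_VCV and 389.36 in acute_noisy.

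No other muscle gene of the lists passed with Acta1. Of the 5 skeletal muscle genes tested, Acta1 was the only one past the threshold, and the list's median was -0.04 against 0.00 over all genes. Ckm, the creatine kinase of skeletal muscle, had 21.4, 4.06 and 18.9 in chronic_VCV and 1.31, 16.9 and 14.3 in healthy_noisy. The troponin Tnnt3 had 347, 65.9 and 129 in chronic_VCV and 128, 277 and 91.04 in healthy_noisy. The sum over the skeletal muscle list, Acta1 included, was 238 to 695 in chronic_VCV and 160 to 397 in healthy_noisy, and no defining marker was at 0 in either group. The cardiac muscle list summed to 405 to 856 in chronic_VCV and 513 to 1549 in healthy_noisy. Among the other actins, Actc1 of heart muscle differed by -0.08 ± 0.68, Actg2 of smooth muscle by 0.26 ± 0.31, and the cytoplasmic actins Actb by 0.49 ± 0.30 and Actg1 by 0.44 ± 0.32 (adjusted p = 1 for each). Acta2 was not found under its symbol and could not be compared. Actin genes are near-identical in sequence. How the authors assigned reads that match several of them is not stated, so reads may be split among them.

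Ctgf (ENSRNOG00000015036), a secreted matrix protein that marks YAP and TGF-beta activity, was abundant throughout. Its values were 4759, 10245 and 5774 in chronic_VCV and 1779.5, 1991 and 2820.04 in healthy_noisy. The groups did not overlap, and chronic_VCV_069 was the highest of the 6 by a wide step. Means were 6926 ± 2919 in chronic_VCV and 2197 ± 549.95 in healthy_noisy (SD, n = 3 each), a log2 change of 1.61 ± 0.25 (adjusted p = 0.00672, 95% interval 1.10 to 2.111). Without chronic_VCV_069 the change was 1.28 and still passed (adjusted p = 0.0264). Ctgf missed the threshold without healthy_noisy_029 (1.47, adjusted p = 0.0925) or without healthy_noisy_061 (1.55, adjusted p = 0.0901). Across the other uninjured or chronically injured groups Ctgf averaged 2645 in chronic_noisy, 3810 in control_chronic, 1588 in healthy_VCV and 4573 in control_blank. The control_blank values of 3610 to 5710 overlapped those of chronic_VCV. Acutely injured lungs averaged 8629 in acute_VCV, above chronic_VCV, and 5372 in acute_noisy.

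The YAP target list as a whole was mixed. Of its 10 members tested, Ctgf was the 1 past the threshold, 4 were higher and 0 lower at an unadjusted p under 0.05 (2.23% and 1.88% of all genes), and the median was 0.20. Cyr61, a matrix protein of the same family as Ctgf, had 10536, 4622 and 1908 in chronic_VCV and 1143, 1474 and 4268 in healthy_noisy, led by chronic_VCV_067. Ankrd1, an ankyrin-repeat cofactor of stretched muscle, had 461, 256 and 486 in chronic_VCV and 199.9, 209.8 and 166 in healthy_noisy, with no overlap between groups. F3, tissue factor, which starts coagulation, had 8918, 2996 and 3925 in chronic_VCV and 1987, 2486 and 3000.1 in healthy_noisy. Cyr61, Ankrd1 and F3 had an adjusted p of 1, and for Cyr61 and F3 the groups overlapped. Axl, Nov and Edn1 had differences of -0.01, -0.47 and -0.02.

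Ube2t (ENSRNOG00000005038) is the ubiquitin-conjugating enzyme of the Fanconi anaemia pathway, which repairs DNA crosslinks, and is made mainly by dividing cells. Its values were 9.18, 5.07 and 6.66 in chronic_VCV and 32.7, 48.2 and 33.8 in healthy_noisy, from 6, 5 and 6 reads in chronic_VCV and 25, 40 and 33 reads in healthy_noisy. The groups did not overlap, and the low chronic_VCV reads carry the counting error of a handful of fragments. Means were 6.97 ± 2.07 in chronic_VCV and 38.2 ± 8.70 in healthy_noisy (SD, n = 3 each), a log2 change of -2.31 ± 0.37 (adjusted p = 0.00938, 95% interval -3.07 to -1.55). Ube2t missed the threshold without chronic_VCV_073 (adjusted p = 0.0761), without healthy_noisy_029 (0.0556) and without healthy_noisy_061 (0.167). Chronic_VCV had the lowest level of the 8 groups, against means of 18.1 in chronic_noisy, 16.3 in control_chronic, 23.1 in healthy_VCV and 60.95 in control_blank.

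The gene named D4ADP0_RAT (ENSRNOG00000033301), whose role is not annotated in the files, had deposited values of 10.7, 186 and 645 in chronic_VCV and 0 in each healthy_noisy library. Its log2 change was 6.81 ± 1.23 in limma's test (adjusted p = 0.0413, 95% interval 4.27 to 9.35). Set against an assumed 3 reads per healthy_noisy library, the mean of 280.29 in chronic_VCV was 79.3-fold higher, a ratio led by chronic_VCV_073. Without chronic_VCV_073 this ratio was 27.8-fold, and it was 74.4-fold or more without any other single library. The chronic_VCV libraries themselves spanned a wide range, 7 to 581 reads. Chronic_noisy had values of 444, 229 and 283, and healthy_VCV_062 had 7.90. The control_chronic libraries had 0 to 9.53, and control_blank_074 had 104.65. Such a gene passed the filter on low values through the groups where it is high. It did not pass in edgeR's quasi-likelihood test with TMM factors (adjusted p = 0.0725), and among the fits without 1 library it passed without chronic_VCV_067.

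**Figure D2:**
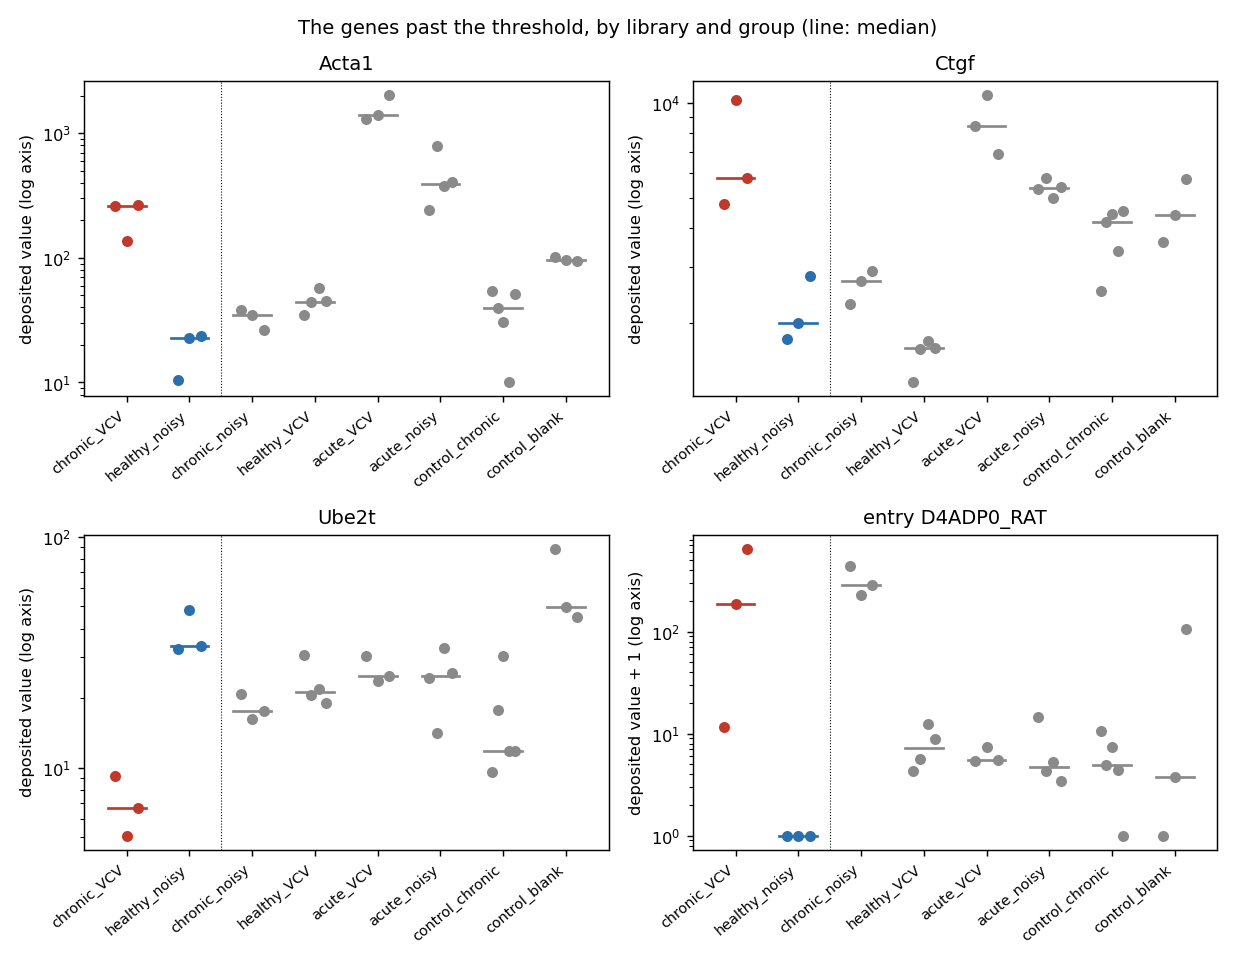
Deposited values (log axis; value + 1 for D4ADP0_RAT) of the 4 genes past the threshold, one panel each, with a point per library and a line at the group median. Chronic_VCV and healthy_noisy stand left of the dotted line and do not overlap in any panel. The other groups show that Acta1 and Ctgf are highest in acute_VCV and Ube2t highest in control_blank.

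The sequences before the starts of the 3 named genes are shown for the short motifs of TEAD, SRF and the factor NF-Y. They are the 250 bases before the RefSeq start on the rat assembly GRCr8, read 5′ to 3′ on the strand of the gene, with motif matches in capitals. They are Ctgf (RefSeq symbol Ccn2) at chr1:22624615-22624864 on the minus strand, Acta1 at chr19:68784195-68784444 on the minus strand and Ube2t at chr13:48954916-48955165 on the plus strand.
Ctgf: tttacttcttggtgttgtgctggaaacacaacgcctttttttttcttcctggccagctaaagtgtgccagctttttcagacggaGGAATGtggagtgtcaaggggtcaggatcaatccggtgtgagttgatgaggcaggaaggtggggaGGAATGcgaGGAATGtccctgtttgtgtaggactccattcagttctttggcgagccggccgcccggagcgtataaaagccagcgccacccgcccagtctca
Acta1: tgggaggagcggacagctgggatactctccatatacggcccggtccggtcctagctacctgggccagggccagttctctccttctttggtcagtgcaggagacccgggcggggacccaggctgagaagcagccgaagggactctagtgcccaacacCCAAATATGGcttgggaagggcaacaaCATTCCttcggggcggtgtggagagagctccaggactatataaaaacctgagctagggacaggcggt
Ube2t: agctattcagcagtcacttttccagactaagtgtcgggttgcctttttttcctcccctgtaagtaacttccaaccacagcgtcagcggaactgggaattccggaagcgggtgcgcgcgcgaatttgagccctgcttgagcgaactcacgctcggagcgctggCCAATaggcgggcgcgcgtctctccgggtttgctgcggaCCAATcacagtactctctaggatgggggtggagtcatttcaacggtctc
Capitals in Ctgf mark GGAATG, the core of the motif that TEAD proteins bind, beginning 166, 101 and 92 bases before the start. Searched on both strands (GGAATG or CATTCC), 12.1% of 33469 promoter windows of this length hold at least 1 match and 0.0777% hold at least 3. Capitals in Acta1 mark a CArG box, the SRF motif, 94 bases before the start, and the same TEAD core on the other strand, CATTCC, 67 bases before it. A CArG box was in 1.5% of windows. Capitals in Ube2t mark 2 copies of CCAAT, the NF-Y motif, found before many genes of dividing cells, 88 and 49 bases before the start. At least 2 copies of CCAAT or ATTGG were in 9.28% of windows. A match describes the letters and says nothing of binding in these lungs.

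Below the adjusted threshold, the genes of smallest unadjusted p that reached 50 on average in either group were named in each direction. On the higher side they include genes known from epithelial stress and wound response, none of them past the threshold. Tnfrsf12a, the receptor for the cytokine TWEAK, had 3308, 433 and 1259 in chronic_VCV and 242, 303 and 389 in healthy_noisy (1.99 ± 0.42, adjusted p = 0.249). Plau, the urokinase that activates plasminogen, had 430.1, 489.8 and 889.7 in chronic_VCV and 236, 188 and 183 in healthy_noisy (1.504 ± 0.33, adjusted p = 0.269). For both genes every chronic_VCV value exceeded every healthy_noisy value. Fosl1, a stress-induced partner of Jun, had 1248, 54.8 and 189 in chronic_VCV and 31.4, 28.9 and 34.8 in healthy_noisy (2.86 ± 0.64, adjusted p = 0.339). Areg, which activates the epidermal growth factor receptor (EGFR), had 1087, 63.9 and 204 in chronic_VCV and 16.99, 34.97 and 41.9 in healthy_noisy (3.01 ± 0.69, adjusted p = 0.363). Both also kept the groups apart, though chronic_VCV_067 stood many-fold over chronic_VCV_069. The rest of the set were F2rl1, a protease-activated receptor (0.85 ± 0.20), Fhl2, a LIM-domain coactivator of muscle and wound cells (0.90 ± 0.22), Lmna, the nuclear lamin A/C (0.67 ± 0.17), the orphan receptor Gprc5a (0.75 ± 0.19), Epha2, an ephrin receptor (0.97 ± 0.25), and Trem2, a lipid-sensing receptor of macrophages (1.67 ± 0.44), with adjusted p of 0.399 to 0.66. Trem2 differed from the others in being highest in chronic_VCV_069, with 50.5, 196 and 57.7 in chronic_VCV and 18.3, 33.8 and 26.6 in healthy_noisy.

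Some of these genes passed when chronic_VCV_069 was left out. Without this library, which had the lowest chronic_VCV value of Areg, Fosl1 and Tnfrsf12a, 16 genes passed, 14 higher and 2 lower in chronic_VCV, against 4 with all libraries. They included Tnfrsf12a (2.74, adjusted p = 0.000412), Gprc5a (1.09, 0.00115), Fosl1 (3.90, 0.00115), Areg (3.96, 0.00815), Lmna (0.90, 0.0211), the EGFR ligand Hbegf (1.77, 0.026), the cytokine Il24 (3.81, 0.0401) and Epha2 (1.27, 0.0482). Plau, F2rl1, Fhl2 and Trem2 were not among them. Leaving out the lowest chronic_VCV value of a gene raises its difference by construction. When any other single library was left out, no gene passed beyond the 4 called with all libraries. Without chronic_VCV_067, the highest library for Areg, Fosl1 and Tnfrsf12a, those same 4 passed. Hbegf had 829.7, 154 and 354 in chronic_VCV and 188, 112 and 189 in healthy_noisy. Il24 had 44.4, 3.04 and 31.1 in chronic_VCV and 3.92, 0 and 3.07 in healthy_noisy. With the 6 libraries complete, EGFR ligands and receptors as a list had 0 of 8 members past the threshold and a median of -0.02. Tgfa, Egf and Erbb2 differed by -0.20, -0.16 and -0.17, and Areg, Ereg and Hbegf were the 3 of 8 members with differences above 1. In edgeR's quasi-likelihood test with TMM factors Tnfrsf12a (adjusted p = 0.0257) and Fosl1 passed beside Acta1, Ctgf and Ube2t.

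On the lower side, the genes so named included several known from red cells. Kel, which carries the Kell blood group, had 22.96, 2.03 and 8.88 in chronic_VCV and 107, 36.2 and 66.5 in healthy_noisy (-2.85 ± 0.77, adjusted p = 0.674). Rhd, of the Rhesus blood group, had 107, 30.4 and 39.9 in chronic_VCV and 174, 133 and 148 in healthy_noisy (-1.55 ± 0.46, adjusted p = 0.752). Bpgm, the enzyme that makes bisphosphoglycerate in red cells, had 825, 612 and 693 in chronic_VCV and 1525, 953 and 1038 in healthy_noisy (-0.70 ± 0.20, adjusted p = 0.674). The groups did not overlap for Kel, Rhd or Bpgm, and the lowest value of each was in chronic_VCV_069. The globins Hbb-b1 and Hba2 differed by -1.47 ± 0.42 and -1.48 ± 0.43, also without overlap (adjusted p = 0.72 and 0.751). Il6r, of the interleukin-6 receptor, had 2598, 1992 and 1541 in chronic_VCV and 3567, 3447 and 2937 in healthy_noisy (-0.73 ± 0.19, adjusted p = 0.66). Globin genes are near-identical copies, so their reads may be split among them.

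The erythroid list showed the same side. Its 7 members tested had differences of -1.74 to -0.70, median -1.32 against 0.00 over all genes, and 0 above 0 (50.5% of all genes). None passed the adjusted threshold, 6 were lower at an unadjusted p under 0.05 (1.88% of all genes) and 2 did not overlap (3.8%). Summed over the list, levels were 29267 to 89341 in chronic_VCV and 90055 to 168800 in healthy_noisy, with no defining marker at 0. Hba-a2 had 73659, 22100.2 and 33369 in chronic_VCV and 125826, 72778 and 78162 in healthy_noisy. Slc4a1, the anion exchanger of the red cell membrane, had 597, 174 and 219 in chronic_VCV and 1215, 521 and 1174 in healthy_noisy. Healthy_noisy_029 was the highest library for 7 of 7 genes (15.2% of all genes) and chronic_VCV_069 the lowest for 6 of 7 (16% of all genes). Leaving out 1 library at a time, the median stayed between -1.72 and -0.99. In whole-lung RNA, fewer cells of a type and less RNA per cell cannot be told apart, here or for any list below. The part of blood left in the vessels was not tested.

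Genes of cell division, which mark cells in or near mitosis, also leaned lower without any past the adjusted threshold. Of 22 tested, 19 had differences below 0, 7 were lower at an unadjusted p under 0.05 (1.88% of all genes), 7 did not overlap (3.8%), and the median was -0.58, with -0.82 to -0.44 when 1 library was left out. Ccnb1, cyclin B1, which drives entry into mitosis, had 22.96, 58.8 and 31.1 in chronic_VCV and 57.5, 92.9 and 122 in healthy_noisy (-1.29 ± 0.34, adjusted p = 0.66), with 1 chronic_VCV value inside the other group's range. Nusap1, a spindle protein, had 48.98, 67.95 and 43.3 in chronic_VCV and 87.5, 94.1 and 123 in healthy_noisy. Tpx2, which nucleates spindle microtubules, had 78.1, 123 and 68.8 in chronic_VCV and 144, 162 and 236 in healthy_noisy. Cenpf, of the kinetochore, had 127, 166 and 90.97 in chronic_VCV and 178, 233 and 393 in healthy_noisy. Nusap1, Tpx2 and Cenpf separated the groups, while Ccnb1 did not. The DNA replication genes Mcm2 (0.09 ± 0.17), Mcm6 (-0.08 ± 0.18) and Pcna (0.13 ± 0.15) were near even. Rrm2 and Tyms, also of replication, were tested and are not described. Mki67, Top2a, Birc5, Mcm3, Mcm5 and Tk1 were not found under their symbols. Chronic_VCV_073 was the lowest library for 16 of the 22 (18.9% of all genes) and healthy_noisy_078 the highest for 15 (14.4%).

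**Figure D3:**
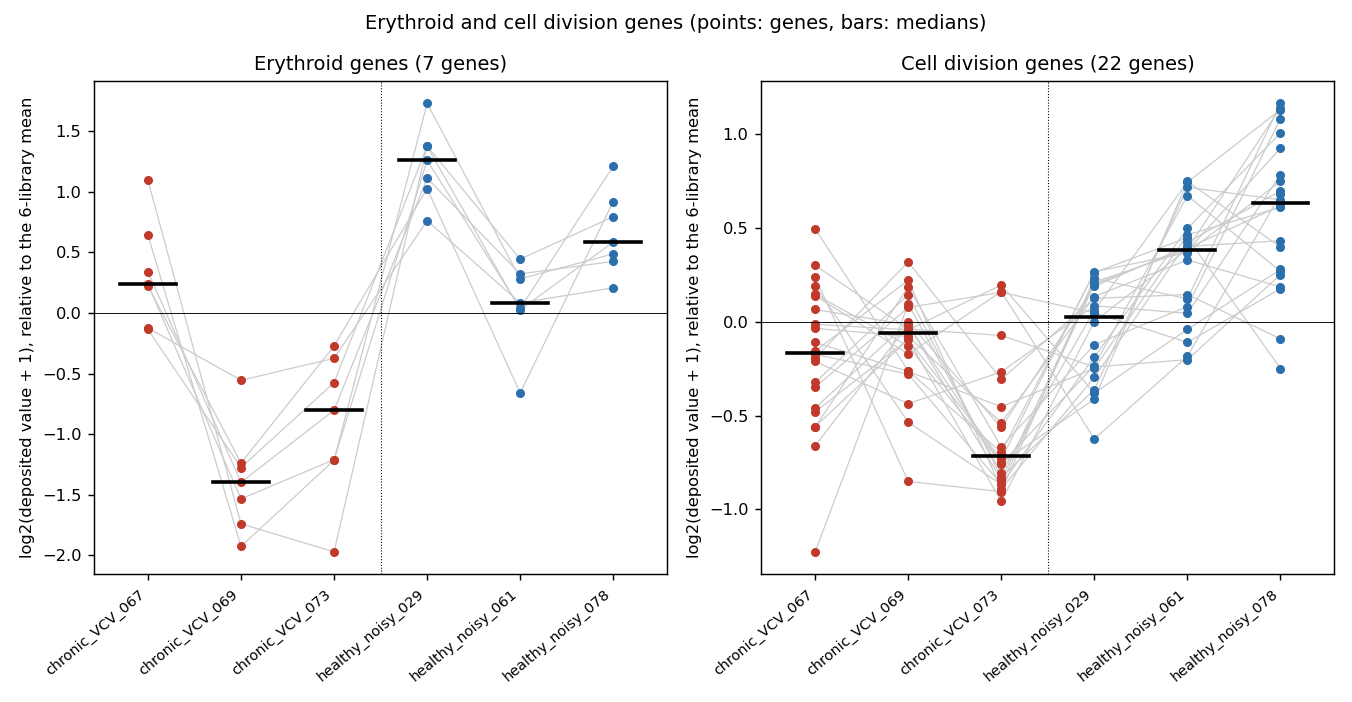
Log2(deposited value + 1) of each erythroid gene (left, 7 genes) and cell division gene (right, 22 genes) minus its mean over the 6 libraries, with lines joining a gene and black bars at library medians. Erythroid genes are highest in healthy_noisy_029 and low in chronic_VCV_069 and chronic_VCV_073; cell division genes run lowest in chronic_VCV_073 and highest in healthy_noisy_078.

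Matrix genes, the textbook product of chronic repair, had no tested member past the threshold. Tnc, Spp1, Thbs1, Tnfaip6 and Comp were not found under their symbols and so were not tested. Nor were Col4a2, Col15a1, Col18a1, Col14a1 and Fbln5 of the collagen list. Of 19 collagens and elastic fibre genes tested, 18 had differences above 0 (50.5% of all genes), but 0 passed the adjusted threshold and 0 an unadjusted p under 0.05, and in none did the groups separate. Col1a1, of type I collagen, had 9725, 47131 and 13456 in chronic_VCV and 9751, 8038 and 17609.7 in healthy_noisy (0.72 ± 0.48, adjusted p = 1). Col3a1, of type III collagen, had 36673, 102486 and 41051 in chronic_VCV and 36366, 29092 and 60999.6 in healthy_noisy. Elastin (Eln) had 13688, 110581 and 16907 in chronic_VCV and 14866, 11937 and 24204 in healthy_noisy. In each the excess was that of chronic_VCV_069, while the other 2 chronic_VCV libraries lay inside the healthy_noisy range. This library was highest for 17 of the 19 genes (19.2% of all genes), and the list's median was 0.42 with it and 0.08 without it. The fibroblast marker list behaved alike, with 9 of 14 members highest in chronic_VCV_069, a median of 0.44 and 0.07 without that library, and summed levels of 82796 to 223914 in chronic_VCV and 67749 to 128382 in healthy_noisy. The single gene Ctgf differed by 1.61 with chronic_VCV_069 and by 1.28 without it. Whether Ctgf moved apart from these lists was not tested.

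Fibronectin (Fn1) had 9826, 25207 and 14110.4 in chronic_VCV and 13878, 8794 and 13726 in healthy_noisy. Periostin (Postn), a product of activated fibroblasts, had 6914, 12464 and 9581 in chronic_VCV and 6713, 5206 and 8983 in healthy_noisy. Both overlapped between groups. Tgfb1, which encodes the TGF-beta ligand, had 1341, 1404 and 1386 in chronic_VCV and 1299, 1152 and 1035 in healthy_noisy, non-overlapping but small (0.25 ± 0.18, adjusted p = 1). Of 20 genes of TGF-beta and bone morphogenetic protein (BMP) signalling, 0 passed, 2 were higher and 0 lower at an unadjusted p under 0.05 (2.23% and 1.88% of all genes), and 13 were highest in chronic_VCV_069 (19.2%). Bmp2, a ligand of this family, had 101, 75.1 and 87.6 in chronic_VCV and 41.8, 44.6 and 53.2 in healthy_noisy. Ltbp2, a latent TGF-beta binding protein of elastic fibres, had 5160.1, 14991 and 7009 in chronic_VCV and 5331, 4589.95 and 6244 in healthy_noisy. Those were the 2.

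Among matrix proteases and clotting genes, Plau was described above and none of those tested passed the threshold. Mmp2, Mmp3, Mmp10, Mmp14, Timp2 and Adamts4 were not found under their symbols. The metalloprotease Mmp19 had 391.87, 364 and 374 in chronic_VCV and 214, 185 and 284 in healthy_noisy. Its values kept the groups apart. Timp1, an inhibitor of metalloproteases, had 2065, 730.2 and 1055 in chronic_VCV and 566, 492 and 1621 in healthy_noisy. Mmp12, the elastase of macrophages, had 56.6, 48.7 and 26.6 in chronic_VCV and 5.23, 45.8 and 29.7 in healthy_noisy, with overlap in each. Of 13 matrix proteases and inhibitors tested 3 were higher and 0 lower at an unadjusted p under 0.05, and of 14 coagulation genes 4 were higher and 0 lower (2.23% and 1.88% of all genes), with Plau in both lists and 0 past the threshold in either.

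Among injury-associated epithelial genes, 10 of 10 tested had differences above 0 (50.5% of all genes), 3 at an unadjusted p under 0.05 (2.23%) and 3 without overlap (3.47%), with 0 past the threshold. Itgb6, of the integrin that frees TGF-beta from its latent form on epithelium, had 932, 1038 and 2547 in chronic_VCV and 583, 498 and 775 in healthy_noisy (1.15 ± 0.35, adjusted p = 0.842). Krt19, a keratin of simple epithelium, had 7207, 6213 and 13784 in chronic_VCV and 5632, 5019 and 5455 in healthy_noisy. In these 2 genes chronic_VCV_073 was the highest library, unlike Areg, the third. The keratin Krt17 was near the floor, with 9.18, 11.16 and 11.09 in chronic_VCV and 0, 10.85 and 14.32 in healthy_noisy, and overlapped. Of the defining markers of basal cells, Tp63 did not reach the filter and was at 0 in some of the libraries, and Krt14 had 39.8, 12.2 and 38.8 in chronic_VCV and 5.23, 57.9 and 47.1 in healthy_noisy. Alveolar type 1 genes (11 tested, median -0.02) and type 2 genes (9 tested, median -0.19) had 0 members past the threshold.

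Immediate early genes were led by chronic_VCV_067. It was the highest library for 18 of the 18 tested, where 20.9% of all genes were highest in it, and the list's median was 0.57 with it and -0.05 without it. Atf3 had 13865, 358 and 696 in chronic_VCV and 285, 262 and 388 in healthy_noisy. Egr1 had 20309.8, 2716 and 710.01 in chronic_VCV and 439, 1066 and 3418 in healthy_noisy. Nr4a1 had 8434, 941 and 829.8 in chronic_VCV and 759, 1118 and 1329 in healthy_noisy. In Egr1 and Nr4a1 the other 2 chronic_VCV libraries lay inside the healthy_noisy range. Fos had 2787, 723 and 276 in chronic_VCV and 374, 510.1 and 1296 in healthy_noisy, with chronic_VCV_073 the lowest of the 6. Hspa1a, the inducible 70-kilodalton heat shock protein, followed with 25888, 1886 and 2635 in chronic_VCV and 1902, 1462 and 2221 in healthy_noisy. The 13 heat shock genes tested had 13 differences above 0, with 7 highest in chronic_VCV_067 and a median of 0.33, or 0.13 without it. Il6, a cytokine of the acute response, had 171, 1.01 and 6.66 in chronic_VCV and 10.5, 1.21 and 3.07 in healthy_noisy. The monocyte attractant Ccl2 had 1007, 61.9 and 176 in chronic_VCV and 3.92, 27.7 and 79.8 in healthy_noisy. Both again peaked in chronic_VCV_067. Of 24 chemokines tested 12 were highest there, 0 passed the threshold and 5 were higher at an unadjusted p under 0.05 (2.23% of all genes).

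**Figure D4:**
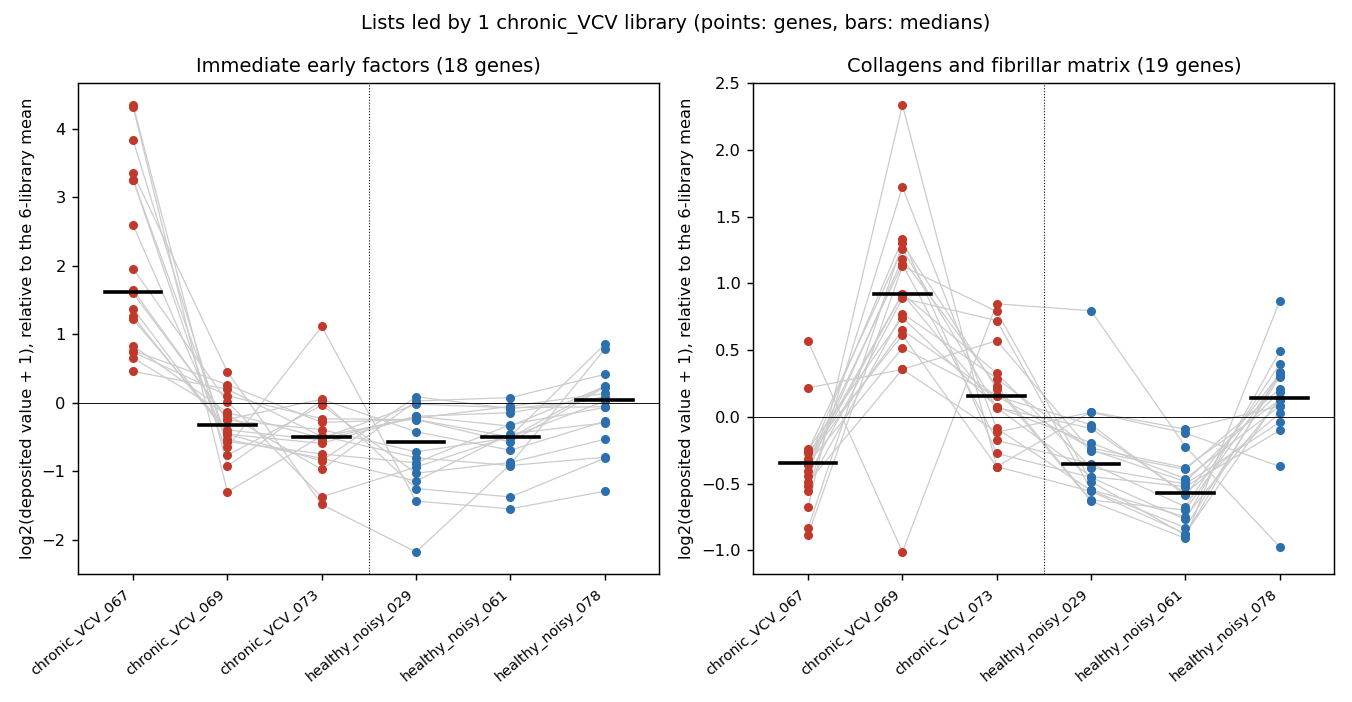
Log2(deposited value + 1) of 18 immediate early genes (left) and 19 collagen and elastic fibre genes (right), each minus its mean over the 6 libraries, with black bars at library medians. The left list stands apart in chronic_VCV_067 (median 1.62) and the right list in chronic_VCV_069 (median 0.92), while the other chronic_VCV libraries lie close to the healthy_noisy libraries.

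Neutrophil, T cell and B cell genes were mostly lowest in chronic_VCV_069. The 18 neutrophil genes tested had 18 differences below 0 and a median of -0.66, or -0.20 without chronic_VCV_069. None passed the threshold, 1 was lower at an unadjusted p under 0.05 (1.88% of all genes) and 3 did not overlap (3.8%). S100a8, a calcium-binding protein abundant in neutrophils, had 5515, 1886 and 3306 in chronic_VCV and 6563, 5121 and 6004 in healthy_noisy (-0.85 ± 0.56, adjusted p = 1). Mmp8, the neutrophil collagenase, had 1349, 454 and 1168 in chronic_VCV and 3289.9, 1495 and 673 in healthy_noisy. Summed over the list, levels were 11431 to 29090 in chronic_VCV and 28592 to 39340 in healthy_noisy, with no defining marker at 0. Chronic_VCV_069 was the lowest library for 13 of the 18, for 17 of 21 T and NK cell genes and for 9 of 14 B and plasma cell genes, where 16% of all genes were lowest in it. It was instead the highest library for 8 of 15 monocyte and interstitial macrophage genes (19.2% of all genes). Cd3e, of the T cell receptor complex, had 97.97, 22.3 and 80.99 in chronic_VCV and 109.8, 105 and 58.3 in healthy_noisy. Cd79b, of the B cell receptor, had 464, 49.7 and 376 in chronic_VCV and 247, 204 and 188 in healthy_noisy. The B cell list held differences in both directions. Cr2, the complement receptor of B cells and follicular dendritic cells, differed by -2.41 ± 0.85 (adjusted p = 1), with overlap. On the higher side stood Igj, the joining chain of secreted antibodies, with 1298, 363 and 1017 in chronic_VCV and 289, 332 and 110.5 in healthy_noisy (1.83 ± 0.53, adjusted p = 0.724) and no overlap.

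Macrophage lists showed no common direction. Alveolar macrophage genes (8 tested) had a median of -0.09 and monocyte and interstitial macrophage genes (15 tested) 0.23. Trem2 was the 1 member at an unadjusted p under 0.05 (2.23% of all genes were higher at that level). Gpnmb, a glycoprotein of lipid-laden macrophages, had 4548, 12679 and 4568 in chronic_VCV and 4366, 6884 and 5137 in healthy_noisy, and like Trem2 was highest in chronic_VCV_069. Il1b, a cytokine of activated macrophages, overlapped, with 4415, 868 and 1978 in chronic_VCV and 5127, 2437 and 2139.8 in healthy_noisy.

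Healthy_noisy had an outlying library as well. Interferon response genes were highest in healthy_noisy_078 for 20 of the 22 tested, where 14.4% of all genes were, and their median was -0.23 with it and 0.32 without it, so this list's sign turned on 1 library. Mx1, an antiviral GTPase, had 379.6, 439 and 688 in chronic_VCV and 227, 329 and 4849 in healthy_noisy. Isg15, a ubiquitin-like protein, had 577, 469 and 859.8 in chronic_VCV and 389, 551 and 2165 in healthy_noisy. In airway genes the step was larger still. Muc5b, a mucin of airway glands and secretory cells, had 234, 614 and 193 in chronic_VCV and 316, 452 and 4229.6 in healthy_noisy. Plunc, an antimicrobial protein of large airways, had 24.5, 9.13 and 2.22 in chronic_VCV and 16.99, 2.41 and 1659 in healthy_noisy. Scgb3a1 had 15.3, 69.98 and 35.5 in chronic_VCV and 7.84, 10.9 and 1659 in healthy_noisy. Scgb1a1, the secretoglobin of club cells, did not follow, with 387298, 148468 and 176683 in chronic_VCV and 234269, 397395 and 283598 in healthy_noisy. Of 9 club and airway secretory genes 6, of 13 ciliated cell genes 9 and of 6 platelet genes 6 were highest in healthy_noisy_078. The club and airway list summed to 163807 to 405500 in chronic_VCV and 253314 to 422807 in healthy_noisy, and had a median of -0.71, or -0.29 without healthy_noisy_078. How much large airway each piece of lobe held was not tested.

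Genes of smooth muscle and pericytes and genes of lining cells showed 2 more patterns. Of the smooth muscle and pericyte list, Myh11, Cnn1 and Lmod1 were not found under their symbols. Of 8 smooth muscle and pericyte genes tested, 7 had differences above 0 (50.5% of all genes) and 0 passed. At an unadjusted p under 0.05, 1 was higher (2.23% of all genes). Pdgfrb, the growth factor receptor of pericytes, had 2656, 3522 and 3028 in chronic_VCV and 2285, 2123 and 2120.4 in healthy_noisy. The adhesion molecule Mcam had 8140.5, 8211 and 8004 in chronic_VCV and 5865, 5639 and 7513 in healthy_noisy. Both were higher without overlap (3.47% of all genes). Des, the 1 defining marker found, overlapped, with 2036, 1365 and 2911 in chronic_VCV and 1679, 1811 and 1600 in healthy_noisy. Summed over the list, levels were 18303 to 21255 in chronic_VCV and 13978 to 16612 in healthy_noisy, with median differences of 0.28 to 0.37 when 1 library was left out. Against healthy_VCV_062, with a sum of 19861, the list's median was -0.36, the opposite sign. Mesothelial genes, of the sheet that covers the lung, were lowest in chronic_VCV_073 for 5 of 6, with Msln at 1528, 1434 and 605 in chronic_VCV and 1917, 1362 and 3376 in healthy_noisy. The exception was Krt19, which other epithelia also express.

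Channels and pumps that move alveolar fluid were mixed. Aqp4, a water channel, had 1065, 1185 and 855 in chronic_VCV and 1495, 1223 and 2245 in healthy_noisy (-0.64 ± 0.29, adjusted p = 1). Cftr, the chloride channel, had 323, 458 and 351 in chronic_VCV and 219.5, 252 and 297 in healthy_noisy (0.55 ± 0.28, adjusted p = 1). Neither overlapped between groups, and the signs were opposite. Of the 12 tested, 1 was higher and 2 were lower without overlap (3.47% and 3.8% of all genes). None passed, and the median was -0.05.

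Genes of cholesterol synthesis and uptake had 19 of 21 differences above 0, with a median of 0.23 that stayed between 0.14 and 0.28 when 1 library was left out, but was -0.07 against healthy_VCV_062. None passed, and 1 was higher at an unadjusted p under 0.05 (2.23% of all genes). Sc5dl, an enzyme late in the pathway, had 407, 483 and 588 in chronic_VCV and 349, 373 and 381 in healthy_noisy. The groups stood apart by a small step. Asns, the asparagine synthetase induced by amino acid shortage, likewise had 643, 771 and 775 in chronic_VCV and 489, 570.4 and 565 in healthy_noisy (0.43 ± 0.17, adjusted p = 1).

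Glucocorticoid target genes set chronic_VCV_073 apart, which was the lowest library for 14 of the 15 tested (18.9% of all genes). Tsc22d3 (Gilz) had 9189, 15138 and 4220.1 in chronic_VCV and 13977, 14270.3 and 14073 in healthy_noisy and Fkbp5, a chaperone of the receptor, had 2936, 5906 and 1876 in chronic_VCV and 7493, 6087 and 5617 in healthy_noisy. None passed, and the median was -0.23 with this library and 0.07 without it.

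**Figure D5:**
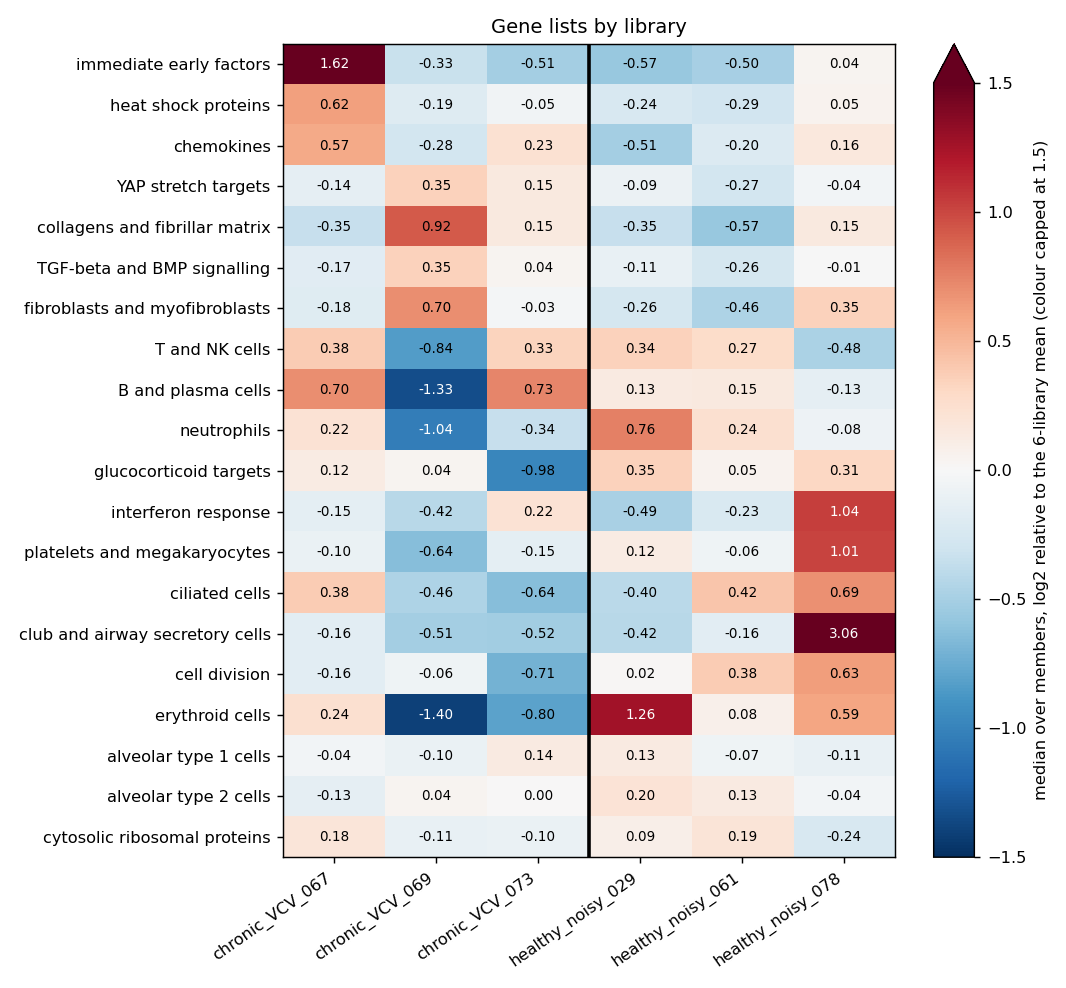
Median over the members of 20 gene lists (rows) in each of the 6 libraries (columns), as log2(deposited value + 1) relative to the mean of the 6, chronic_VCV left of the black line. Red is above and blue below the 6-library mean, with the colour capped at 1.5; most of the strong cells belong to 1 library, such as immediate early factors in chronic_VCV_067 (1.62) and airway secretory genes in healthy_noisy_078 (3.06).

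Over the 50 lists, 670 distinct members were tested, of 823 listed, and 2 were past the threshold, Acta1 and Ctgf. Housekeeping lists lay close to 0. The 50 cytosolic ribosomal protein genes had a median of -0.02 and the 32 nuclear respiratory chain genes a median of -0.01, with 0 members past the threshold or at an unadjusted p under 0.05 in either.

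The library healthy_VCV_062 gives the one view of chronic injury with the same mode and number series on both sides, as 3 chronic_VCV libraries against 1, which is taken to vary like the other groups. No gene passed in limma's test (0 of 14908, 0.0%), and 777 (5.21%) had an unadjusted p under 0.05. Since this comparison uses the same chronic_VCV libraries in which the genes were found, their signs here are no independent support. Acta1 had 45.02 in healthy_VCV_062 (2.21 ± 0.66 for chronic_VCV against it, adjusted p = 0.775), Ctgf had 1663 (1.98 ± 0.35, adjusted p = 0.164) and Ube2t had 18.96 (-1.36 ± 0.53, adjusted p = 0.775). Many lists had the opposite sign here, among them the collagen, smooth muscle and cholesterol lists. The fibroblast (-0.13), TGF-beta and BMP (-0.05), matrix protease (-0.15) and coagulation (-0.1) lists did so too. Monocyte and interstitial macrophage genes (-0.32), interferon response genes (0.12) and mesothelial genes (1.25) also changed sign. The collagen list had a median of -0.25 against healthy_VCV_062, where it had 0.42 against healthy_noisy, and Col1a1 had 18766 in healthy_VCV_062. Erythroid genes (-0.95), cell division genes (-0.64) and neutrophil genes (-0.74) lay below 0 here as well. Healthy_noisy against healthy_VCV_062, which sets variable against constant tidal volumes without injury, had 0 genes past the threshold and 1172 (7.86%) at an unadjusted p under 0.05.

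The other partial view keeps the variable mode on both sides, chronic_noisy against healthy_noisy, but sets number series 14 against 15, which then cannot be told apart from the injury. It called 699 genes (4.69%), 338 higher (2.27%) and 361 lower (2.42%) in chronic_noisy, with 4352 (29.2%) at an unadjusted p under 0.05, and shares the healthy_noisy libraries with the main comparison. Acta1 differed by 0.84 ± 0.46 (adjusted p = 0.223), Ctgf by 0.29 ± 0.25 (adjusted p = 0.436) and Ube2t by -1.02 ± 0.37 (adjusted p = 0.0845), so none of these 3 passed there, while D4ADP0_RAT did (8.27 ± 1.23, adjusted p = 0.00912). Tnfrsf12a, Fosl1 and Areg differed by -0.67, -0.68 and 0.13, against 1.99, 2.86 and 3.01 for chronic_VCV. Trem2 was at 1.799 (adjusted p = 0.0327) in chronic_noisy and 1.67 in chronic_VCV. List medians were 0.52 for collagens, 0.06 for cell division genes, 0.04 for neutrophil genes, -0.56 for erythroid genes and -0.57 for immediate early genes. Whether the 2 comparisons differ in any of these genes was not tested.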

How the data were processed

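Per the labels' protocols, messenger RNA was captured on oligo(dT) beads, made into dUTP strand-marked libraries and sequenced in pools on a HiSeq 2000. The submitters' processing notes name CASAVA 1.8.0, BWA, bedtools 2.11, DESeq 1.8.3 and the build rn4, and the file header names Ensembl version 67. How reads on either strand or matching several genes were counted is not given in the sources used here. The deposited values are a signal, read counts divided by a size factor per library. In each library 100% of values were whole multiples of 1 step within 0.1 read, which gives back whole reads. Replicates differed (smallest chi-square per gene 21.9). Of 17002 genes, 489 have no name and 2786 carry a protein entry name.

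Genes with a mean of at least 10 over 28 libraries (14908) were fitted as log2(deposited value + 1) by limma 3.58.1 (R 4.3.3), using 1 mean for each of 8 groups, an intensity trend and a robust prior, so that all groups share 1 estimate of a gene's spread. The test was two-sided with Benjamini-Hochberg adjustment and a threshold of 0.05. With 3 against 3 an exact permutation test cannot go below p = 0.1, so none was used. edgeR 4.0.16 quasi-likelihood tests on the recovered reads were alternatives. The procedure was also run on simulated reads with independent noise in each gene and library. Such reads hold no deviation shared by many genes of a library, so they say nothing of that feature here.

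Groups, lists and tests were chosen with earlier results of these data known. Genes set to be named were those past the threshold, filled to 12 in each direction. The fill took the smallest unadjusted p among symbols whose group mean reached 50 in either group. List members past the threshold or the first 2 of a list, and 20 fixed genes, were added. Of the fixed genes, 2 (Tnc and Spp1) were not found under their symbols, and Aqp5 and Cxcl13 are not described above. Some other genes of these sets are not described either. Further list members were named after their values were seen. Synonyms and promoters came from RefSeq tables (GRCr8) by symbol, since 0 Ensembl identifiers matched. Python 3.11.15 (pandas 2.3.3, numpy 2.4.6) made the tables and matplotlib 3.10.9 the plots.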

Additional observations from a re-analysis of the deposited data

How the results depend on the processing

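The count of 4 genes past the threshold (3 higher, 1 lower) rests on the spread estimated over all 28 libraries. Fitted on the 6 libraries only, limma called 0 genes (0 higher, 0 lower, 497 at an unadjusted p under 0.05), and on number series 15 only it called 0 (0 higher, 0 lower, 565 unadjusted). The same subsets in edgeR, chosen after seeing the data, called 0 and 0 (0 higher and 0 lower in each), with 568 and 643 unadjusted, and these subsets leave fewer residual degrees of freedom by construction. The limma changes there were 3.50 for Acta1, 1.61 for Ctgf and -2.31 for Ube2t. With 1 mean per group they equal the main ones by construction. With all 28 libraries, edgeR called 5 genes with TMM factors and 5 with the authors' size factors. No filter and a filter over the 6 libraries gave 4 each, and a pseudocount of 10, quantile normalization and the number series as a covariate gave 3 each, losing D4ADP0_RAT. Leaving out 1 library gave 1 to 16 genes, 1 to 14 higher and 0 to 2 lower, with 16 without chronic_VCV replicate 069, 2 without 073, and 1 without healthy_noisy replicate 029 or 061. Acta1 was called in each of the 6. The fold ratio of D4ADP0_RAT over an assumed 3 reads, also chosen after seeing the data, was lowest, at 27.8, without chronic_VCV_073. No paired analysis was possible because no replicate number occurs in both groups. No change of sign occurred in any called gene under these alternatives, but most of them could not bring one about. Leaving out 1 library cannot turn the sign where the groups do not overlap. The limma fits on subsets, with other filters or with the covariate keep the same difference by construction. Depth limits low genes most, Ube2t with 5 or 6 reads in chronic_VCV and D4ADP0_RAT with 0 reads in healthy_noisy.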
